A study of Mus musculus with 4 samples.

Results

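The mRNAs of 10 circadian clock genes were read on 4 arrays of newborn mouse brain. All 10 had a lower mean on the TiO2-H arrays than on the Sham arrays once each array was scaled to its own 75th percentile, but Clock, Nr1d1 and Nr1d2 were on the higher side without that scaling. The median log2 difference of all mRNAs tested was 0.02 with that scaling and 0.13 without it. The genes were the period genes Per1, Per2 and Per3, the cryptochromes Cry1 and Cry2, the activators Arntl and Clock, the nuclear receptors Nr1d1 and Nr1d2, and the output gene Dbp. They were chosen by name, and their probes were found through the RefSeq accession that each probe carries. They make up 10 of 20660 named genes and 11 of 55681 probes, because Dbp has 2 probes and each other gene has 1. The differences were small, largest for Cry1 (log2 difference -0.40) and Per2 (-0.37), and no gene passed the test across all mRNAs.

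Pregnant C57BL/6J mice received 25 µL of vehicle (Sham) or of a suspension of titanium dioxide nanoparticles (TiO2-H, 100 µg/mouse) into the trachea. The day of administration was GD 10.5 in the protocol and GD14 in the sample labels. Whole brains of male and female offspring were taken on postnatal day 1. RNA of 2 offspring from each of 5 dams (Sham) or 6 dams (TiO2-H) was pooled for each sex, and each of the 4 pools was hybridized once to a one-color array. There was thus 1 array for each sex and exposure, and a pool shows no spread among offspring or litters. The dams were kept in 12 h of light and 12 h of dark. The time of day at which the brains were taken is not given in the sources used here.

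The mammalian clock is a feedback loop of transcription. ARNTL (also called BMAL1) and CLOCK form a dimer that binds E-boxes and switches on the Per and Cry genes, whose proteins then hold that dimer back. A second loop runs through NR1D1 and NR1D2 (REV-ERB proteins), which repress Arntl at RORE elements, while DBP is an E-box target that itself activates genes through D-boxes. The suprachiasmatic nucleus of the hypothalamus sets the phase of the body, and in rodents its rhythm is already present around birth. Whole brain also holds many cells outside that nucleus, and in such bulk RNA fewer cells of a type and less RNA per cell cannot be told apart.

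The arrays were alike in quality. The Sham arrays (male, then female) had 75th percentiles of 810 and 795, the TiO2-H arrays had 867 and 871, and between 56.2% and 61.2% of spots were well above background, the scanner software's own test against the local background. The sex labels of the TiO2-H arrays went against the sex-linked mRNAs. Eif2s3y, on the Y chromosome, had a signal of 3519 on Sham male, 419 on Sham female, 6.40 on TiO2-H male and 4345 on TiO2-H female, and Xist had 17.9, 276, 347 and 5.36 in the same order. The TiO2-H arrays are therefore called the array labelled TiO2-H male and the array labelled TiO2-H female, and comparisons within a sex label carry that doubt. Sham female also held Y-linked mRNA well above background, Eif2s3y as given and Ddx3y at 142 (1418 on Sham male). On the array labelled TiO2-H male neither was well above background, with Ddx3y at 7.18. The cause was not tested, and values set against Sham female carry this limit. The comparison of both TiO2-H arrays with both Sham arrays does not use the sex label. All 4 arrays lay on 1 slide, with the Sham arrays in one row and the TiO2-H arrays in the other, so row and exposure cannot be told apart. Bright neuron mRNAs (Snap25, Stmn2, Tubb3 and Rbfox3, with a summed signal of 31122%, 31130%, 30454% and 31614% of the 75th percentile) fitted the labelled tissue.

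The promoters show where the known clock elements lie in these genes, with the window of 250 bases before and 50 after each start site taken from RefSeq (GRCm38.p6). Of the 10 genes, 9 had 1 or more windows, 13 in all, and Per2 is named only. Both strands were searched for the E-box CACGTG (present in 7.15% of 32851 promoter windows) and the E'-box CACGTT (4.685%). Those 32851 windows leave out a whole chromosome, which carries none of the 10 genes, and windows of another length. The D-box TTATGTAA or TTACGTAA (1.056%) and the RORE TAGGTCA or TGGGTCA (6.453%) were searched in the same way. These letters do not overlap one another as searched. The 3 windows below belong to the gene with the largest difference between the exposures, Cry1, to the brightest period gene, Per1, and to Per3, the one member past a fold threshold within a sex label. They are written 5′ to 3′ on the strand of the gene, without the bases after the start site, and the capitals mark the matched elements.
Cry1 (chr10:85185055-85185304, minus strand, E'-box read on the other strand, then E-box): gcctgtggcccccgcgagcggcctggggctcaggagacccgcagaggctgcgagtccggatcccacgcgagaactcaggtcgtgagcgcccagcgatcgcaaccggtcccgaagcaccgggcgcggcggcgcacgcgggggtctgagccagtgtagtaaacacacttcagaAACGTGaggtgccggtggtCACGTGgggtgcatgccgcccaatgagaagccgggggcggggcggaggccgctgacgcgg
Per1 (chr11:69098699-69098948, plus strand, E-box): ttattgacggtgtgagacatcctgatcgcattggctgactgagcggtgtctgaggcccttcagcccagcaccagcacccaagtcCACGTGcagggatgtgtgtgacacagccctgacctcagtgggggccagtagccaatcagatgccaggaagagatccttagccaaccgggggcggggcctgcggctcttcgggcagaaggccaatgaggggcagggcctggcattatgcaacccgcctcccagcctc
Per3 (chr4:151044666-151044915, minus strand, D-box, D-box): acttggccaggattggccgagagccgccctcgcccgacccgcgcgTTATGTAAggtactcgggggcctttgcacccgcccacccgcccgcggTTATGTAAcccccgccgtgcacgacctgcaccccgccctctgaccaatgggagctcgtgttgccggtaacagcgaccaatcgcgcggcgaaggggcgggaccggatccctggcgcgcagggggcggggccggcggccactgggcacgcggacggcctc

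The Cry1 window held the E'-box and the E-box close together, with first bases at -79 and -60 counted from the start site. Per1 had an E-box at -166 in the first of its 2 windows and none in the other. Per3 held 2 copies of the same D-box, at -205 and -158. An E'-box was found in Cry2 (at -166) and in Nr1d1 (at -28), and a RORE lay just after the start site in 1 of the 2 windows of Arntl. The windows of Clock, Nr1d2 and Dbp held none of these 4 elements. The Cry1 window was rich in G and C (72.3%, with 38 CpG sites) next to the median of the 32851 windows (52.7%, with 7 CpG sites). A match of letters is a description of the window and not a measured binding site.

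Signals are given below as the scanner software's processed signal. Because the TiO2-H arrays were brighter in general, differences were taken on log2 of the signal over each array's own 75th percentile, and every log2 difference is TiO2-H minus Sham on that scale unless stated. A log2 difference of -1 is a halving. The test was limma across 19486 mRNAs with 2 arrays an exposure and no sex term, with each mRNA's spread drawn toward that of all mRNAs. Its p-values rest on the spread between the 2 pools of an exposure, 1 labelled male and 1 labelled female. Any difference between the sexes is part of that spread. Both pools came from the same dams, 5 for Sham and 6 for TiO2-H. That spread therefore holds no variation between litters, and the 2 pools are not independent samples of dams. An exact permutation of 2 against 2 arrays cannot go below p = 0.333, and so few arrays limit the precision.

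The period genes encode the repressors that pair with cryptochromes. Per1 (NM_011065, chr11:69095108-69109965) had a signal of 4693 on Sham male, 5051 on Sham female, 4720 on the array labelled TiO2-H male and 4181 on the array labelled TiO2-H female. On the scaled values both TiO2-H arrays lay below both Sham arrays, but as scanned the groups overlapped. The log2 difference was -0.25 (SE 0.095, n = 2 and 2, limma adjusted p = 0.343). It was -0.09 between the arrays labelled male and -0.40 between those labelled female.

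Per2 (NM_011066, chr1:91415977-91459351), which like Per1 is induced by light and hormones, had signals of 118, 119, 110 and 90.4 in the same order. Both TiO2-H arrays were below both Sham arrays, with or without scaling. The log2 difference was -0.37 (SE 0.12, limma adjusted p = 0.312), with -0.20 for the male label and -0.53 for the female label. The TiO2-H arrays differed from each other by -0.29 (labelled female minus labelled male), and the Sham arrays by 0.04.

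Per3 (NM_011067, chr4:150997018-151044707), the period gene whose loss leaves the rhythm largely intact, was near the background. Its signals were 27.0, 34.8, 38.3 and 23.2, and the spot was well above background only on Sham female and on the array labelled TiO2-H male. Where 1 array of a pair was not well above background, its value was raised to that array's lowest signal well above background. Per3 was then at least 1.18-fold higher on the array labelled TiO2-H male than on Sham male, and at least 1.63-fold lower on the array labelled TiO2-H female than on Sham female. The 2 labels went opposite ways, the groups overlapped, and the log2 difference over all 4 arrays was -0.15 (SE 0.33, limma adjusted p = 0.811).

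Cry1 (NM_007771, chr10:85131700-85185054), a strong repressor of the ARNTL and CLOCK dimer, had the largest difference of the 10 genes. Its signal was 287 on Sham male, 252 on Sham female, 226 on the array labelled TiO2-H male and 216 on the array labelled TiO2-H female. Both TiO2-H arrays were lower than both Sham arrays, scaled or not. The log2 difference was -0.40 (SE 0.077, 95% interval -0.64 to -0.16), with an unadjusted p = 0.0127 and an adjusted p = 0.283 in limma. Cry1 was 1.36-fold lower between the arrays labelled male and 1.27-fold lower between those labelled female, while the Sham arrays differed by -0.16 in log2 (female minus male). It lay on the same side for both labels, by more than the Sham arrays differed from each other. That is a description of the largest of the 10 differences beside 1 pair of Sham arrays, and was not tested.

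Cry2 (NM_009963, chr2:92403646-92434085), the other cryptochrome, had signals of 11775, 11176, 10770 and 11669. The scaled values were lower on both TiO2-H arrays, but the signals as scanned overlapped. The log2 difference was -0.15 (SE 0.058, limma adjusted p = 0.346). The array labelled TiO2-H male was the lowest of the 4, at -0.23 against Sham male, and the array labelled TiO2-H female was at -0.07 against Sham female.

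The activators differed less. Arntl (NM_007489, chr7:113178471-113314126) had signals of 1321, 1349, 1267 and 1368, which overlapped as scanned. On the scaled values both TiO2-H arrays were lower, by -0.16 and -0.11 for the male and female label, and the log2 difference was -0.13 (SE 0.058, limma adjusted p = 0.367). Clock (NM_007715, chr5:76209868-76305603), the partner of Arntl, had signals of 255, 246, 292 and 244. The array labelled TiO2-H male was the highest and the array labelled TiO2-H female the lowest, so that the groups overlapped (log2 difference -0.02, SE 0.11, 95% interval -0.37 to 0.32, limma adjusted p = 0.917).

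The REV-ERB genes overlapped between the exposures as well. Nr1d1 (NM_145434, chr11:98767932-98775377) had signals of 255, 226, 272 and 222, with the 2 arrays labelled male above those labelled female. Its log2 difference was -0.08 (SE 0.14, 95% interval -0.51 to 0.34, limma adjusted p = 0.752). Nr1d2 (NM_011584, chr14:18204056-18239106) had signals of 378, 413, 413 and 405, with the lowest on Sham male. On the scaled values Sham female was the highest and the log2 difference was -0.06 (SE 0.071, 95% interval -0.28 to 0.16, limma adjusted p = 0.646).

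Dbp (NM_016974, chr7:45705100-45710203), among the most strongly cycling targets of the clock in many tissues, was read by 2 probes. The first had signals of 2579, 2537, 2478 and 2351, and the second 2488, 2402, 2441 and 2281. The first probe was lower on both TiO2-H arrays with or without scaling, and the second only after scaling. The log2 differences were -0.20 (SE 0.046, unadjusted p = 0.0210 and adjusted p = 0.284 in limma) for the first probe and -0.17 for the second, which was not fitted. The Sham arrays were within 0.0034 of each other in log2 on the first probe.

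**Figure D1:**
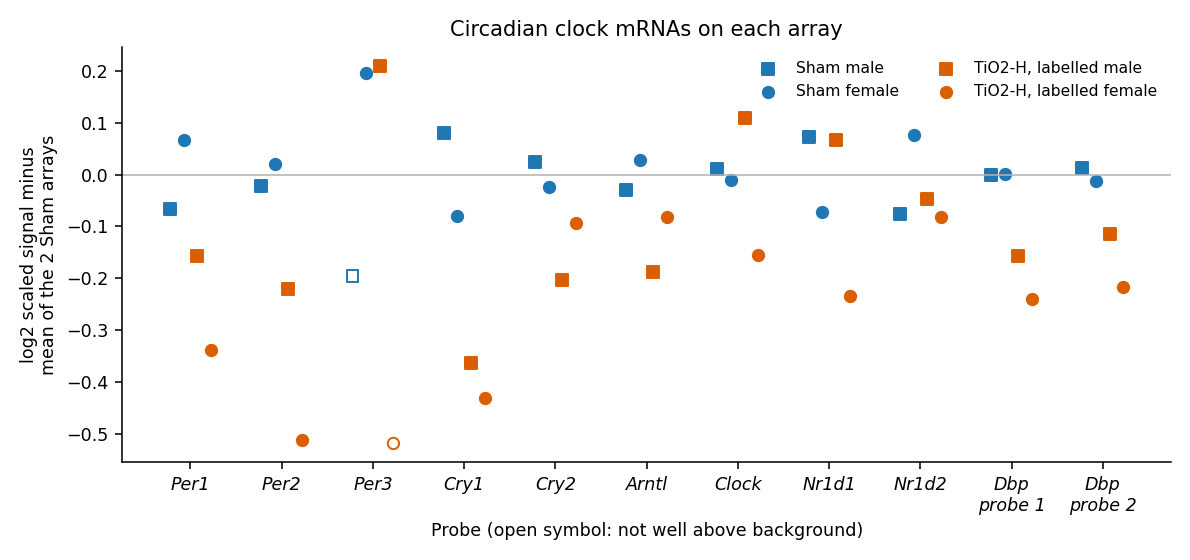
Each point is 1 array's log2 scaled signal for 1 probe (horizontal axis) minus the mean of the 2 Sham arrays (vertical axis), with open symbols where the spot was not well above background. Cry1, Per2, Per1 and both Dbp probes have both TiO2-H arrays below both Sham arrays, whereas Clock, Nr1d1, Nr1d2 and Per3 overlap.

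In all, 6 of the 10 genes (Per1, Per2, Cry1, Cry2, Arntl and Dbp) had both TiO2-H arrays below both Sham arrays, which 24.3% of all 19486 mRNAs tested also had, and 30.7% had both above. Without scaling 3 of the 10 remained (Per2, Cry1 and Dbp), against 5.26% of all mRNAs. The scaling itself lowered every TiO2-H minus Sham difference by 0.11 in log2, which is close to the size of the differences of Cry2 and Arntl. The median of the 10 genes was -0.15 with scaling and -0.04 without it, and that of all mRNAs was 0.02 and 0.13. No mRNA of the 19486 had an adjusted p under 0.05 in limma (0%), and the lowest was 0.242. At an unadjusted p under 0.05, Cry1 and Dbp were the members counted, both lower in TiO2-H, beside 5.54% of all mRNAs that were lower at that threshold and 16.3% in either direction.

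**Figure D2:**
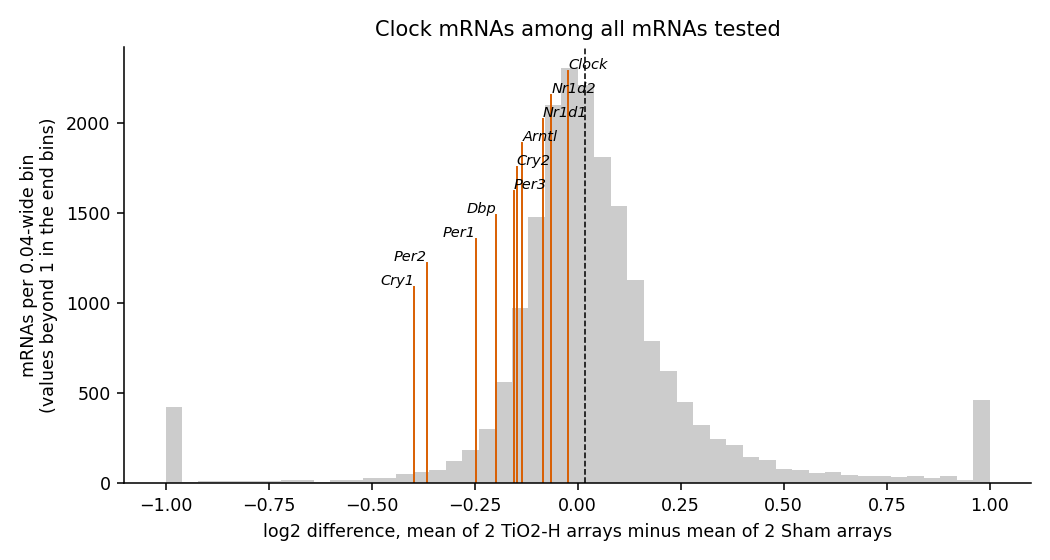
The grey bars count all 19486 mRNAs tested by their log2 difference, mean of the 2 TiO2-H arrays minus mean of the 2 Sham arrays, in bins 0.04 wide with values beyond 1 in the end bins, and the dashed line is their median. The orange lines mark the 10 clock genes by value only, their height has no meaning, and all lie left of 0 between -0.40 and -0.02.

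Within a sex label there was 1 array a side and no test. At a threshold of 1.5-fold or 0.67-fold, 0 of 10 genes passed between the arrays labelled male, where 5.15% of 18628 mRNAs did (2.87% higher and 2.29% lower). Between the arrays labelled female 1 passed, Per3 as the bound given above, where 4.25% of 18917 mRNAs did (1.96% higher and 2.29% lower). Between the 2 Sham arrays none passed, where 4.34% of 18166 mRNAs did (2.18% higher and 2.16% lower). Among the 9 genes well above background on every array, the log2 difference had a median of -0.16 for the male label (7 below 0) and -0.16 for the female label (9 below 0). Over all 17166 mRNAs well above background on every array the medians were 0.0044 and 0.014. The share of those mRNAs below 0 was not computed. Between the Sham arrays (female minus male) the median of the same 9 genes was 0.0034, with 4 below 0, and between the TiO2-H arrays (labelled female minus labelled male) it was -0.08, with 7 below 0. The spread over 17166 mRNAs (a robust SD of the log2 ratio) was 0.14 for both labels and 0.09 between the Sham arrays. Cry1, for the female label also Per2 and Per1, lay more than 2 such SDs from 0. How large a share of all mRNAs lay as far out was not computed. The scanner software's own error of a log2 ratio was larger, 0.20 for Per1, 0.21 for Cry1, 0.23 for Per2 and 0.47 for Per3. For the male label this error exceeded the difference of every member but Cry1 and Cry2. For the female label it exceeded those of Cry2, Arntl, Clock, Nr1d1 and Nr1d2.

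**Figure D3:**
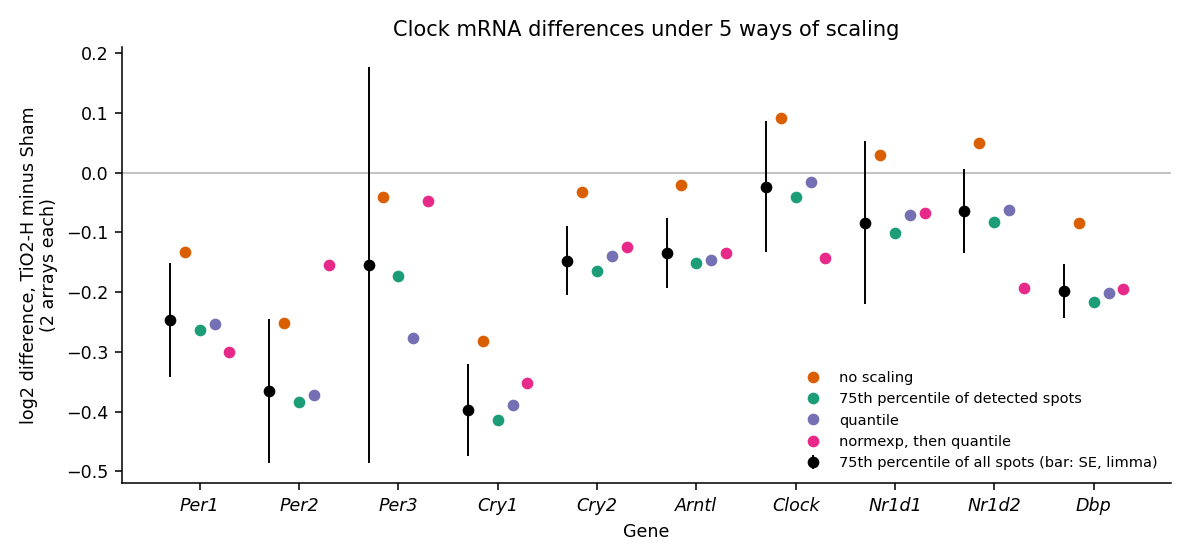
Each gene's log2 difference, TiO2-H minus Sham over 2 arrays each, is drawn under 5 ways of scaling, and the bar is the limma SE of the first. Cry1, Per2, Per1, Cry2, Arntl, Dbp and Per3 are below 0 under all 5, while Clock, Nr1d1 and Nr1d2 are above 0 without scaling (0.09, 0.03 and 0.05).

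A difference between 2 genes on the same array does not depend on the scaling. Cry1 relative to Clock was 0.07 on Sham male and -0.07 on Sham female (log2, against their mean), -0.47 on the array labelled TiO2-H male and -0.28 on the array labelled TiO2-H female, so both TiO2-H arrays were lower. Per2 relative to Arntl was 0.0076, -0.0076, -0.03 and -0.43, again lower on both, though by little on the array labelled TiO2-H male. Per1 relative to Arntl was -0.04, 0.04, 0.03 and -0.26, and overlapped. Dbp and Nr1d1 are targets of the dimer that ARNTL belongs to, and both overlapped relative to Arntl. Dbp relative to Arntl differed by -0.06 and Nr1d1 relative to Arntl by 0.05. These pairs show unequal differences of 2 mRNAs and not which of them differed.

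The genes around the core loop lay on both sides of 0. Of 24 partners and modifiers of the clock, 23 were well above background on at least 1 array, and 4 had both TiO2-H arrays higher, 8 had both lower and 11 overlapped (median log2 difference -0.02). Of all mRNAs tested, 30.7% had both higher and 24.3% both lower, which is the background for the counts of this and the following lists. All these counts were made on the scaled values only. The brightest 3 partners were Csnk1d, a kinase of the PER proteins, Fbxw11, and Nono, a partner of PER. Fbxw11 is a subunit of the ubiquitin ligase that PER is degraded through. All 3 overlapped on their brightest probe, with differences of -0.03, -0.02 and -0.0041. The second probes of Csnk1d (-0.05 for the male and -0.25 for the female label) and Fbxw11 (-0.03 and -0.11) had both TiO2-H arrays lower. That of Nono (-0.15 and -0.02) overlapped. Bhlhe41, a repressor at E-boxes, had signals of 50.8, 51.3, 50.9 and 34.6 in the order used above, and only the array labelled TiO2-H female stood apart, 1.63-fold below Sham female. None of the arrays had its other probe well above background.

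Fbxl21, the ligase subunit that acts on the cryptochromes, was the other partner past the fold threshold. One probe had 27.3, 884, 28.3 and 33.1, so that Sham female alone was high and the array labelled TiO2-H female was 29.2-fold below it. The second probe had 54.4, 51.4, 63.9 and 77.1 and did not show that high value, so the 2 probes of Fbxl21 disagreed. Ciart, a repressor of the ARNTL and CLOCK dimer, and Npas2, which can stand in for CLOCK, were picked out after their values were seen. Ciart had 83.7, 85.2, 73.1 and 71.5, a log2 difference of -0.34 (SE 0.041, unadjusted p = 0.0033, limma adjusted p = 0.283). Npas2 had 13.4, 16.4, 24.6 and 29.1 and was well above background only on the array labelled TiO2-H female, so no fold is given.

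The clock output genes and the neuropeptide system of the suprachiasmatic nucleus were spread around 0. Of 7 output genes 2 had both TiO2-H arrays higher, 2 both lower and 3 overlapped (median -0.0093). Their brightest were Noct, a phosphatase of the coenzyme NADP(H), at -0.0093, Por, the electron donor of cytochrome P450 enzymes, at 0.05, and Alas1, the first enzyme of haem synthesis, at -0.06. Of 13 suprachiasmatic nucleus genes, 3 were higher, 2 lower and 8 overlapped (median 0.03). Avp, the neuropeptide vasopressin and an E-box target in that nucleus, had signals of 1518, 1456, 1437 and 1442 and a log2 difference of -0.16 (SE 0.035, limma adjusted p = 0.284). Grp, another neuropeptide of the nucleus, was at 0.03 and Zfhx3, a transcription factor of its neurons, at 0.23 (SE 0.082, limma adjusted p = 0.321). Both peptides are also made outside that nucleus.

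Per1 and Per2 also respond to glucocorticoids and to cAMP, and 12 genes of those inputs were read. Of these, 2 had both TiO2-H arrays higher, 4 both lower and 6 overlapped (median -0.04). Tsc22d3, a glucocorticoid-induced gene also called GILZ, had signals of 6725, 6513, 6367 and 6350 and a log2 difference of -0.17 (SE 0.033, limma adjusted p = 0.283). Fkbp5, a co-chaperone of the glucocorticoid receptor and its target, had 4410, 4119, 4297 and 4258 and a log2 difference of -0.11 (SE 0.044, limma adjusted p = 0.350). Its signals as scanned overlapped, and the scaling itself lowered every difference by 0.11. Crtc1, a coactivator of CREB, overlapped at -0.03. No gene of the 4 lists had an adjusted p under 0.05 in limma. At an unadjusted p under 0.05 there were 4 higher and 3 lower among the partners, and 1 and 1 among the outputs. There were none and 1 in the nucleus list, and none and 3 among the inputs. Of all mRNAs, 16.3% passed in either direction and 5.54% were lower. The 4 higher partners were Rorb, Btrc, Gsk3b and Npas2, each on its brightest probe. Npas2 was well above background on 1 array only, and other probes of Btrc and Gsk3b went the other way, as given above.

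**Figure D4:**
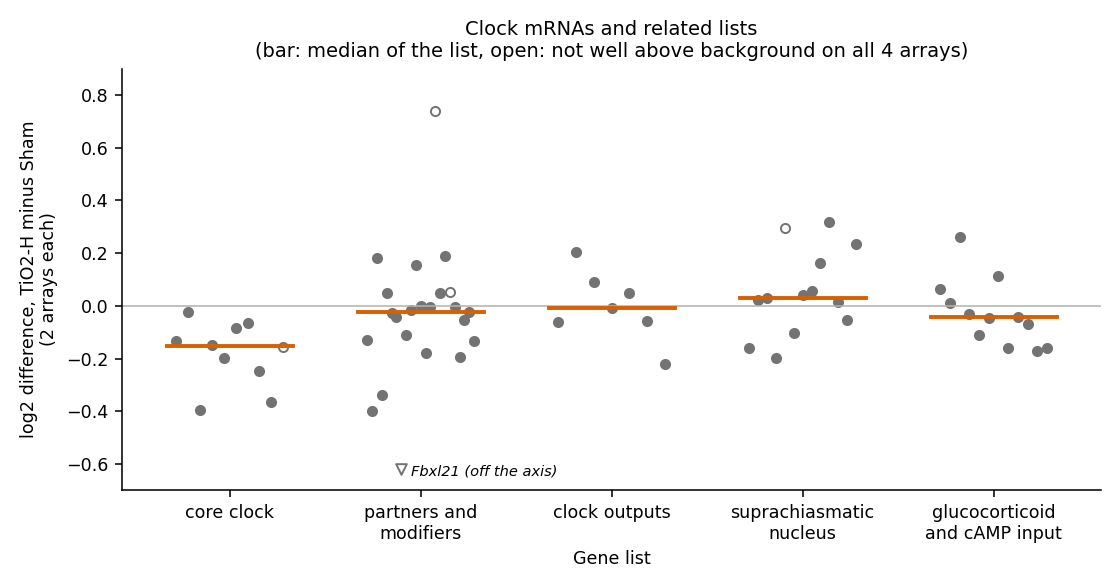
Each point is 1 gene's log2 difference, TiO2-H minus Sham over 2 arrays each, and the orange bar is the median of its list. The clock genes lie between -0.40 and -0.02 with a median of -0.15, and the other 4 lists have medians between -0.04 and 0.03. Open symbols are genes not well above background on all 4 arrays, whose differences rest partly on values near the background, and Fbxl21, 1 of them, is drawn at the lower edge because it lies off the axis.

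The 3 mRNAs whose pattern over the 4 arrays was most like that of Cry1, among 17165 searched by Euclidean distance of centred log2 values, were Ino80c (distance 0.072), Zxdc (0.076) and Zswim3 (0.085). With 4 arrays such likeness is a description. Ino80c, a subunit of a chromatin remodeller, had signals of 278, 245, 229 and 222.

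Some markers of other cells differed between the exposures, although none had an adjusted p under 0.05 in limma. The measured blood mRNAs, Hba-a1 and Alas2, had both TiO2-H arrays lower (2 of 2, summed signal 6246% and 5996% of the 75th percentile on the Sham arrays, 5140% and 5173% on the TiO2-H arrays). The meningeal collagens and proteoglycans had both TiO2-H arrays higher (4 of 4, 1221% and 1192% against 1315% and 1324%), as were the microglial mRNAs (3 of 3, 1051% and 1029% against 1140% and 1149%) and 2 of 3 endothelial ones (753% and 720% against 839% and 836%), where 30.7% of all mRNAs had both higher and 24.3% both lower. These counts rest on the brightest probe of each gene, and other microglial probes did not all go the same way. Csf1r read -0.07 for the male and -0.03 for the female label on another probe, with both TiO2-H arrays lower. A further Csf1r probe (-0.08 and 0.10) and the other probe of Cx3cr1 (0.28 and -0.0070) overlapped. The other lists were mixed: 1 of 4 neuron markers had both higher and 1 both lower, 2 of 3 of radial glia and astrocytes had both higher and 1 both lower, 1 of 2 of the oligodendrocyte lineage had both higher, and 1 of 4 of the choroid plexus had both lower. Gh, a pituitary hormone, was well above background only on the array labelled TiO2-H male (301), and Alb, of liver, on none. Pomc, also on the pituitary list, had 572 on Sham male, 570 on Sham female, 956 on the array labelled TiO2-H male and 590 on the other. Ckm, of muscle, was well above background only on Sham female (54.8), and the other 2 muscle mRNAs overlapped. The part of these shifts in the clock differences was not tested.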

How the data were processed

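For 4 one-color arrays the authors deposited intensity values, in a scanner file for each array and in 1 value table, whose entries were identical to the processed signals. Agilent Feature Extraction (version 10.10.1.1) had been used, and its processed signal is already corrected for local background. From these intensities, control spots and outlier-flagged spots (between 138 and 181 an array) were left out, spots of 1 probe were averaged, and log2 of the signal minus log2 of the array's 75th percentile was taken. The brightest probe stood for an accession. Probes were named through RefSeq (GRCm38.p6), which held 98.0% of the RefSeq accessions.

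Groups followed the sample labels. TiO2-H (n = 2) was compared with Sham (n = 2) by limma (version 3.58.1, R 4.3.3) without a sex term, over mRNAs well above background on at least 1 array, with Benjamini-Hochberg adjustment. The scripts were tested on simulated data. Genes named beside the 10 members were those past 1.5-fold or 0.67-fold and the 3 brightest of each list, and the 3 mRNAs most like Cry1. Ciart and Npas2 fall outside that rule and were picked after their values were seen. The members and lists were chosen with earlier results of these data known. Alternatives were other scalings and filters, sex as a term, each array left out, and a 2-fold threshold. For probes with repeated spots, the median SD of log2 signal within an array was between 0.064 and 0.072 well above background and between 0.36 and 0.55 below it. Methylation arrays were not analysed here.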

Additional observations from a re-analysis of the deposited data

Results flagged for a closer look

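Of the 10 clock genes and the other genes named by the rule, 9 differed from Sham in opposite directions on the arrays labelled male and those labelled female. Genes of the lists that the rule did not name were not examined for this, and the share of all mRNAs with opposite directions was not computed. The robust SD of the log2 ratio within a label was 0.14, more than the size of the values below for Csnk1d, Fbxw11, Nono, Crtc1 and Noct. Each value is the log2 difference for the female label minus that for the male label, with 1 array a group, and the difference between the labels was not tested. The sex labels of the TiO2-H arrays went against the sex-linked mRNAs, and Sham female held some Y-linked mRNA. The core members were Clock (-0.24), Nr1d2 (-0.19) and Per3. For Per3 the value as measured was -1.12, but 1 array of each pair was not well above background, and with those arrays at the floor the value was -0.94 (0.23 for the male label and -0.71 for the female label), which bounds it from above. Of the named list genes, Csnk1d (-0.11), Fbxw11 (-0.09), Nono (-0.03) and Crtc1 (-0.12) were higher for the male label. Noct (0.04) and Grp (0.15) were higher for the female label. The second probes of Csnk1d, Fbxw11 and Nono were below 0 for both labels. They read -0.05, -0.03 and -0.15 for the male label and -0.25, -0.11 and -0.02 for the female label. As scanned, the brightest probes of all these list genes were higher in TiO2-H for both labels.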

How the results depend on the processing

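No clock gene, and no mRNA, had an adjusted p under 0.05 in limma under any of the 15 alternatives run, and the lowest adjusted p of a clock gene was 0.157 (Cry1 without scaling). Cry1 kept its sign throughout (between -0.48 and -0.28), as did Per2 (-0.51 to -0.15), Per1 (-0.34 to -0.13), Dbp (-0.24 to -0.08), Cry2 (-0.20 to -0.03) and Arntl (-0.19 to -0.02). Without scaling Clock (0.091), Nr1d1 (0.030) and Nr1d2 (0.050) changed sign. With each array left out in turn, Per3 lay between -0.52 and 0.21, Clock reached 0.11, Nr1d1 lay between -0.23 and 0.066 and Nr1d2 between -0.14 and 0.013. The positive values of Clock, Nr1d1 and Per3 came without the array labelled TiO2-H female, and those of Nr1d2 and again Per3 (0.04) without Sham female. The cause was not tested. The count of genes with both TiO2-H arrays below both Sham arrays, an analysis added after seeing the data, was 3 without scaling, 7 after normexp and quantile normalization, and 6 under the other alternatives. The 7 held Clock and Nr1d2 and lacked Per2, whose log2 difference was then -0.15. The single gene past the fold threshold for the female label, Per3, became 0 without scaling, after normexp on medians and quantile normalization, with a filter on both arrays, at 2-fold, and with the TiO2-H array of the other label. Sex was the one label that pairs the arrays. With it as a term, as labelled or crossed within TiO2-H, the lowest adjusted p over all mRNAs was 0.445 and 0.469. With 2 pools an exposure, on 1 slide, no mRNA passed at any size of difference. Small differences such as those of Clock or Nr1d2 were not detectable, and larger ones such as that of Cry1 did not pass either.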
